A study of Caenorhabditis elegans with 21 samples.

Results

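The neuropeptide-like protein (*nlp*) genes of *C. elegans* were compared between animals that lack the heterochromatin protein HPL-2 and wild-type animals. The genes were taken by name: every row of the deposited count table named *nlp-* followed by a number was included, except *nlp-27*, *nlp-28*, *nlp-29*, *nlp-30*, *nlp-31* and *nlp-34*, an epidermal cluster of antimicrobial peptide genes. This gave 38 genes, of 44 *nlp* genes and 45461 rows in the table. The rule used gene names alone, but it was set with earlier results of these data known.

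Neuropeptides are short signaling peptides that are cut from larger precursor proteins. In the trans-Golgi and in dense core vesicles, a proprotein convertase cleaves the precursor, a carboxypeptidase trims the basic residues that remain, and many peptides are then amidated at the C terminus. The vesicles are released by neurons, and also by intestine and other tissues, and most of the peptides act on G protein-coupled receptors. The *nlp* genes are the mixed class of the worm's neuropeptide genes: unlike the FMRFamide-like (*flp*) and insulin-like (*ins*) classes, they are not defined by 1 shared peptide motif. Different members act in egg laying, feeding, defecation, locomotion, chemosensation and sleep.

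Whole animals of 2 strains were used. The mutant group comprised 3 libraries of *hpl-2*(*tm1489*), a deletion allele described as null, grown at 20°C, and the wild-type group comprised 2 libraries of N2, also grown at 20°C, with no transgene or treatment named for either. Each library was a separate biological replicate, made from poly(A) RNA with a strand-specific protocol. The sample labels give the L4 larval stage for the mutant and the young adult stage for N2, whereas the methods of the study give L4 for both. If the labels are right, genotype and stage cannot be told apart. Under either account, the sums of molt and oocyte genes given below differed between the groups, so developmental timing cannot be told apart from genotype. Library totals ran from 95252804 to 114718047 counts in *hpl-2*(*tm1489*) and from 66490671 to 80724052 counts in N2.

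Levels are given as counts scaled to a common library size (CPM) after TMM normalization, which scales the libraries on the assumption that most genes do not change. CPM values were not divided by transcript length, so levels of different genes are not compared. A gene was called higher or lower in the mutant when its Benjamini-Hochberg adjusted p from edgeR's quasi-likelihood test, adjusted over all 17498 genes tested, was under 0.1. Fold changes are *hpl-2*(*tm1489*) over N2 throughout.

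Several features of the libraries bear on every value below. *hpl-2* itself had 26.7, 30.4 and 29.9 CPM in *hpl-2*(*tm1489*), against 38.9 and 38.6 CPM in N2, a log2 fold change of -0.42 (SE 0.26) that was not called (adjusted p = 0.192), and 1 count per gene does not show whether reads fell in the deleted segment. Neurons, the main source of most *nlp* peptides, were followed by 10 pan-neuronal genes, all of them detected in every library, whose summed level was 298, 312 and 291 CPM in *hpl-2*(*tm1489*), against 329 and 328 CPM in N2. *snb-1* made up much of these sums, with 136, 102 and 146 CPM in *hpl-2*(*tm1489*), against 103 and 151 CPM in N2. The list was split, with 4 genes called lower, 1 called higher and 5 not called. Most of the other tissues differed more, although the sperm sums overlapped between the genotypes. Summed over 10 genes that the epidermis uses around a molt, the level was 121 to 189 CPM in *hpl-2*(*tm1489*) and 1400 to 2110 CPM in N2. The sums of 7 intestinal genes were 3650 to 5240 CPM in *hpl-2*(*tm1489*) and 11300 to 13200 CPM in N2, those of 4 muscle genes 290 to 637 CPM in *hpl-2*(*tm1489*) and 5150 to 9030 CPM in N2, and those of 8 oocyte genes 756 to 2870 CPM in *hpl-2*(*tm1489*) and 388 to 542 CPM in N2. The sums of 6 sperm genes were 229 to 307 CPM in *hpl-2*(*tm1489*) and 285 to 369 CPM in N2. Those of 6 early embryo genes were 3.47 to 4.75 CPM in *hpl-2*(*tm1489*) and 0.223 to 0.46 CPM in N2. Nearly all of the mutant embryo sum was *vet-2* (3.33, 3.40 and 4.68 CPM, against 0.199 and 0.0371 CPM in N2). It was the only early embryo gene with enough counts to be tested. No marker in these lists was at 0 in all libraries. The part of these tissue differences in the *nlp* results was not tested, and in whole animals fewer cells of a type and less RNA per cell cannot be told apart.

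Of the 38 *nlp* genes, 35 had enough counts to be tested, and 20 of these differed between the genotypes: 5 rose and 15 fell in *hpl-2*(*tm1489*). The 2 largest rises were those of *nlp-26* (32.1-fold) and *nlp-24* (3.38-fold), and the genes that fell did so by 1.74- to 3.33-fold. The called share of 57.1% stands beside 61.5% of all tested genes, so the *nlp* genes were not called more often than genes in general. By direction, 14.3% of the tested *nlp* genes were called higher, against 33.9% of all tested genes, and 42.9% were called lower, against 27.6% of all tested genes. The median log2 fold change was -0.39 over the *nlp* genes (quartiles -1.11 and 0.19) and 0.16 over all tested genes (quartiles -0.85 and 1.21). Whether the *nlp* genes differ from other genes in direction was not tested.

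In 24 of the 35 tested genes (68.6%) the 3 mutant libraries and the 2 N2 libraries did not overlap, 8 with the mutant above and 16 with the mutant below, beside 72.0% of all tested genes. The count of rises depended on the scaling and on 1 wild-type library, since it was 2 without N2 replicate 1 and 3 after upper quartile scaling. The count of falls lay between 12 and 19 when each library was left out in turn.

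**Figure D1:**
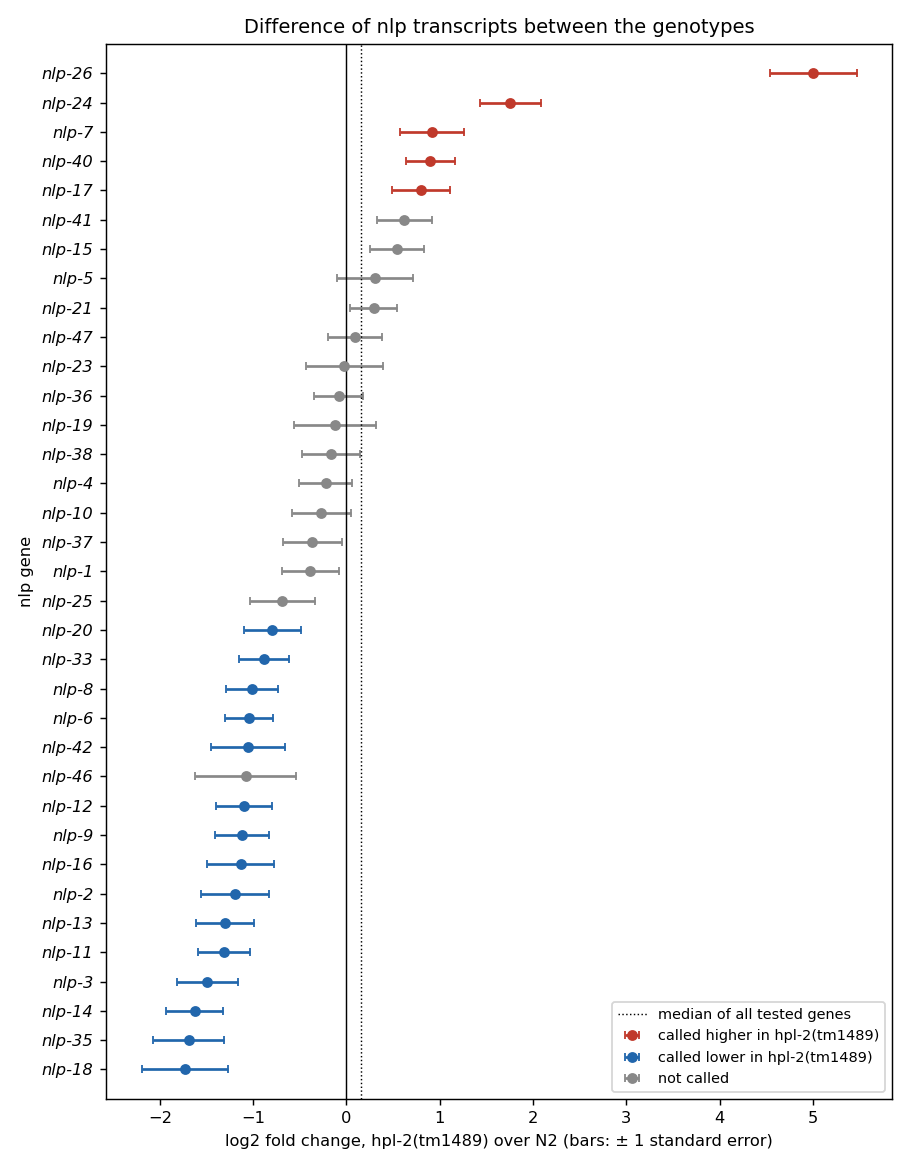
log2 fold change of each of the 35 tested *nlp* genes, *hpl-2*(*tm1489*) over N2 (horizontal axis), with bars of 1 standard error, red for genes called higher, blue for genes called lower and grey for genes not called (adjusted p under 0.1). The dotted line is the median of all tested genes, 0.16. *nlp-26* stands alone at 5.00, and the 15 blue genes lie between -1.73 and -0.80.

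The greatest difference belonged to *nlp-26*. It had 96.0, 185 and 134 CPM in *hpl-2*(*tm1489*), against 5.67 and 2.92 CPM in N2, from raw counts of 12268, 20977 and 12249 in the mutant and 456 and 157 in N2. All mutant libraries were thus far above both N2 libraries, at a depth where counting error is small. The log2 fold change was 5.00 (SE 0.46, adjusted p = 4.48e-05), and it stayed between 4.30 and 5.57 under all 14 other ways of processing the counts. The genes around it did not share its change. *nlp-25*, separated from it by *grsp-1* in the RefSeq table of the WBcel235 assembly, had 5.06, 7.81 and 5.18 CPM in *hpl-2*(*tm1489*), against 12.6 and 6.72 CPM in N2, and was not called (log2 fold change -0.69, SE 0.35, adjusted p = 0.118). *grsp-1* and Y43F8C.3, the genes on either side of *nlp-26*, were both called lower, with log2 fold changes of -1.89 and -1.74. Y43F8C.3 overlaps *nlp-26* in that assembly but moved the other way.

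*nlp-24* encodes YGGW-type peptides with opioid-like activity in feeding, where they act through the receptor NPR-17. It rose to 334, 535 and 291 CPM in *hpl-2*(*tm1489*), against 115 and 114 CPM in N2, with no overlap (log2 fold change 1.76, SE 0.33, adjusted p = 0.00165). The 2 N2 libraries were nearly equal, whereas mutant replicate 2 was well above the other mutant libraries. With offsets that removed each library's trend with gene span, the rise was smaller, at 0.69 on the log2 scale, and still called. Its receptor gene *npr-17* was not called (log2 fold change 0.67, adjusted p = 0.177). *nlp-24* overlaps *glb-15*, a globin gene that was also called higher (log2 fold change 3.00), but *glb-15* had only 488, 619 and 417 raw counts in *hpl-2*(*tm1489*) and 61 and 20 in N2. The gene on its other side, *tag-290*, was called higher too, at 2.15 on the log2 scale.

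*nlp-40* encodes the intestinal peptide that is released with each defecation cycle and activates the GABAergic neurons of the expulsion step through the receptor AEX-2. Its level was 348, 431 and 334 CPM in *hpl-2*(*tm1489*), against 184 and 214 CPM in N2, so the groups were well apart. The log2 fold change was 0.90 (SE 0.26, adjusted p = 0.0162), and without N2 replicate 1 it was 0.80 and no longer called (adjusted p = 0.128). Of the 7 intestinal marker genes, 6 were called lower and 1 was not called, with a median log2 fold change of -0.95, beside 27.6% of all tested genes called lower. That count was 3 without N2 replicate 2. *aex-2*, the gene of its receptor, was called lower, with a log2 fold change of -0.90 (adjusted p = 0.0507) from 115, 103 and 71 raw counts in *hpl-2*(*tm1489*) and 141 and 79 in N2.

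*nlp-7*, whose peptides act in avoidance of aversive stimuli and hold back egg laying, had 15.1, 18.3 and 11.7 CPM in *hpl-2*(*tm1489*), against 5.71 and 10.3 CPM in N2. The lowest mutant library was only just above the higher N2 library. Its log2 fold change of 0.92 (SE 0.34, adjusted p = 0.0444) rested on single libraries and on the processing. The call was lost without mutant replicate 1 (adjusted p = 0.105) or mutant replicate 2 (adjusted p = 0.109), and without N2 replicate 1 the log2 fold change was 0.56. It was also lost after upper quartile scaling (log2 fold change 0.62, adjusted p = 0.196) and when scaled to *pmp-3* (adjusted p = 0.157). With span offsets the log2 fold change was 0.11 (adjusted p = 0.785). *nlp-17* had 49.4, 75.7 and 46.1 CPM in *hpl-2*(*tm1489*), against 29.1 and 36.4 CPM in N2. The groups did not overlap, but mutant replicate 2 again stood apart from the other 2. The log2 fold change was 0.80 (SE 0.31, adjusted p = 0.0544). The call was lost without N2 replicate 1 (adjusted p = 0.256) or N2 replicate 2 (adjusted p = 0.114), and the span offsets turned the direction, to -0.24. In all 5 genes called higher, mutant replicate 2 had the highest level of the 5 libraries. Over all genes called higher, it was the highest of the mutant libraries in 60.0%.

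**Figure D2:**
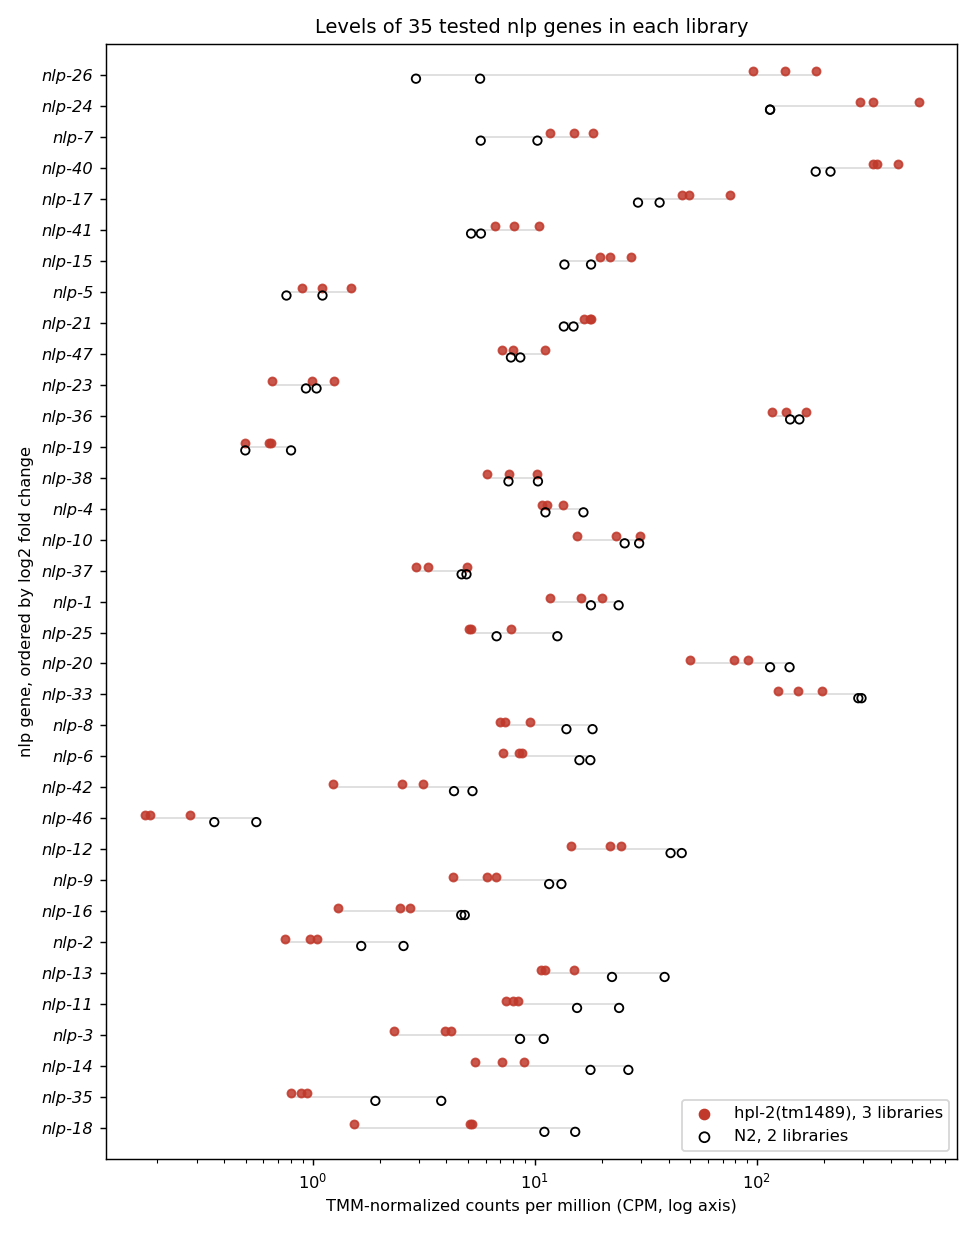
Level of each tested *nlp* gene in every library, in TMM-normalized CPM on a log axis, with filled red points for the 3 *hpl-2*(*tm1489*) libraries and open points for the 2 N2 libraries. Genes are ordered by fold change from the top, and the red points of *nlp-26* lie at 96.0 to 185 CPM, to the right of its open points at 2.92 and 5.67 CPM. In *nlp-18*, at the bottom, the red points lie at 1.54 to 5.20 CPM, to the left of 11.0 and 15.2 CPM.

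The 15 genes that fell included peptides of several behaviors. *nlp-3*, which is released with serotonin from the HSN motor neurons to promote egg laying, had 4.19, 2.32 and 3.92 CPM in *hpl-2*(*tm1489*), against 8.58 and 11.0 CPM in N2. All mutant libraries were below N2, at a log2 fold change of -1.49 (SE 0.33, adjusted p = 0.00387). *nlp-7*, whose peptides act in the opposite sense on egg laying, was called higher, although that call was lost under several alternatives. Each of these genes was set against the same N2 libraries. *nlp-12*, the cholecystokinin-like peptide of the stretch-sensing DVA neuron, fell to 24.5, 21.8 and 14.6 CPM in *hpl-2*(*tm1489*), against 40.8 and 45.8 CPM in N2. The groups were clearly apart (log2 fold change -1.10, SE 0.30, adjusted p = 0.0115), although the call was lost when scaled to *pmp-3* (adjusted p = 0.138). *pmp-3*, the control transcript of the study's quantitative RT-PCR, had 51.6, 32.2 and 60.7 CPM in *hpl-2*(*tm1489*), against 44.7 and 52.2 CPM in N2. Scaling to *pmp-3* thus rests on 1 gene that varied among the mutant libraries, and 46.6% of all tested genes were called with it. The receptor genes of *nlp-12*, *ckr-2* and *ckr-1*, were not called, with log2 fold changes of -0.58 and -0.15.

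*nlp-8*, a peptide gene of the ALA neuron, which drives sleep after cellular stress, and *nlp-14*, whose peptides also act in sleep, both fell. *nlp-14*, an orcokinin-like gene, had 8.96, 5.36 and 7.10 CPM in *hpl-2*(*tm1489*), against 17.8 and 26.4 CPM in N2 (log2 fold change -1.63, SE 0.31, adjusted p = 0.00185). *nlp-8* had 9.55, 6.98 and 7.31 CPM in *hpl-2*(*tm1489*), against 13.9 and 18.2 CPM in N2 (log2 fold change -1.01, SE 0.28, adjusted p = 0.0120). Neither gene's groups overlapped, although *nlp-8* lost its call without N2 replicate 2 (log2 fold change -0.79, adjusted p = 0.105). The call on *nlp-8* was also lost when scaled to *pmp-3* (adjusted p = 0.103).

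The greatest fall belonged to *nlp-18*, 1 of 2 genes for FAFA peptides. It had 5.20, 1.54 and 5.08 CPM in *hpl-2*(*tm1489*), against 11.0 and 15.2 CPM in N2, a 3.33-fold lower level (log2 fold change -1.73, SE 0.46, adjusted p = 0.0103). Mutant replicate 2 lay well below the other 2, and without it the log2 fold change was -1.44 (adjusted p = 0.00218). The other FAFA gene, *nlp-20*, had 78.9, 91.2 and 50.0 CPM in *hpl-2*(*tm1489*), against 115 and 140 CPM in N2. There the mutant libraries were also all lower, but the spread was wide for the size of the difference (log2 fold change -0.80, SE 0.30, adjusted p = 0.0489). The call on *nlp-20* was lost without mutant replicate 3 (adjusted p = 0.127) or N2 replicate 2 (adjusted p = 0.253), by library size alone (adjusted p = 0.237) and when scaled to *pmp-3* (adjusted p = 0.372). Both FAFA genes thus fell, 1 of them in a call that single libraries decided.

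*nlp-9* and *nlp-13*, which neighbor each other in WBcel235, both fell. *nlp-9*, a GGARAF peptide gene, had 6.71, 4.30 and 6.08 CPM in *hpl-2*(*tm1489*), against 11.6 and 13.2 CPM in N2 (log2 fold change -1.12, SE 0.29, adjusted p = 0.00858). *nlp-13* had 15.0, 10.7 and 11.2 CPM in *hpl-2*(*tm1489*), against 22.3 and 38.4 CPM in N2 (log2 fold change -1.30, SE 0.31, adjusted p = 0.00643). In both genes the mutant libraries kept below N2, and the N2 libraries of *nlp-13* were the farther apart. The second GGARAF gene, *nlp-21*, had 17.7, 17.97 and 16.6 CPM in *hpl-2*(*tm1489*), against 14.9 and 13.5 CPM in N2, and was not called (log2 fold change 0.29, adjusted p = 0.355).

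Among the other genes called lower, *nlp-11* had 8.41, 7.42 and 7.94 CPM in *hpl-2*(*tm1489*), against 15.5 and 23.9 CPM in N2 (log2 fold change -1.31, SE 0.28, adjusted p = 0.00332). *nlp-16* had 2.47, 1.29 and 2.74 CPM in *hpl-2*(*tm1489*), against 4.84 and 4.66 CPM in N2 (log2 fold change -1.13, SE 0.36, adjusted p = 0.0236). The mutant libraries of *nlp-11* were close together and its N2 libraries were not, whereas *nlp-16* showed the reverse. *nlp-35* had 0.947, 0.801 and 0.887 CPM in *hpl-2*(*tm1489*), against 1.91 and 3.79 CPM in N2 (log2 fold change -1.69, SE 0.38, adjusted p = 0.00432). *nlp-2* had 0.970, 0.748 and 1.04 CPM in *hpl-2*(*tm1489*), against 1.65 and 2.56 CPM in N2 (log2 fold change -1.19, SE 0.37, adjusted p = 0.0200). Neither gene's groups overlapped. Without N2 replicate 2, the difference in *nlp-35* was smaller, at -1.11 on the log2 scale, and still called, and *nlp-2* was no longer called (log2 fold change -0.84, adjusted p = 0.135).

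These last 2 genes overlap other genes, and the counts on them are uncertain because the methods do not say whether reads were assigned by strand. *nlp-35* overlaps C33A12.19, which had 4747, 10334 and 5067 raw counts in *hpl-2*(*tm1489*) and 240 and 78 in N2 and was called higher, the opposite direction. *nlp-2* lies, with *nlp-22* and *nlp-23*, within the span of T01B6.1, which had 171, 134 and 134 raw counts in *hpl-2*(*tm1489*) and 1638 and 1282 in N2 and was called lower. In all, 10 of the 35 *nlp* genes found in the WBcel235 table overlapped a protein-coding gene there. The others are *nlp-21*, *nlp-24*, *nlp-26*, *nlp-36*, *nlp-41* and *nlp-46*, whose counts share this uncertainty. *nlp-21* overlaps Y47D3B.1, which was called lower, and *nlp-46* overlaps T28H10.1, which was called higher. *nlp-36* and *nlp-41* overlap *dars-1* and *mog-4*, which were not called.

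*nlp-33* is a YGGW-type gene related to *nlp-24*. The YGGW-type genes share a family with the epidermal genes left out of the class, and whole animals do not show which tissue their reads came from. *nlp-33* had 153, 196 and 124 CPM in *hpl-2*(*tm1489*), against 296 and 286 CPM in N2. The mutant libraries were all well below N2 (log2 fold change -0.88, SE 0.27, adjusted p = 0.0200). The call was lost by library size alone (adjusted p = 0.113) and when scaled to *pmp-3* (adjusted p = 0.270). Of the 3 tested YGGW-type genes, *nlp-24* was called higher, *nlp-33* was called lower but not under every scaling, and *nlp-25* was not called. *nlp-6*, an allatostatin-like gene, was called lower at -1.05 on the log2 scale (adjusted p = 0.00686), a call lost when scaled to *pmp-3* (adjusted p = 0.146), and the other allatostatin-like gene, *nlp-5*, was not called (log2 fold change 0.31). The last of the 15 was *nlp-42*, at -1.06 (adjusted p = 0.0452), which lost its call without N2 replicate 2 (log2 fold change -0.90, adjusted p = 0.166).

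Mutant replicate 2 had the lowest level of the 5 libraries in 11 of the 15 genes called lower (73.3%), and mutant replicate 3 in the other 4. Over all genes called lower, replicates 2 and 3 were the lowest of the mutant libraries in 53.9% and 32.9%. Without mutant replicate 2, the median log2 fold change of the *nlp* genes was -0.71, beside 0.03 for all genes tested in that fit.

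The 15 tested genes that were not called had log2 fold changes from -1.08 to 0.62 and adjusted p from 0.104 to 0.966. *nlp-36* had 136, 167 and 116 CPM in *hpl-2*(*tm1489*), against 141 and 155 CPM in N2, so the N2 libraries lay inside the range of the mutant libraries (log2 fold change -0.08, SE 0.26, adjusted p = 0.804). *nlp-23*, the gene nearest to no difference, had 0.994, 1.25 and 0.657 CPM in *hpl-2*(*tm1489*), against 0.932 and 1.04 CPM in N2, and its standard error of 0.41 would have hidden a difference of that size. *nlp-1*, which the AWC olfactory neurons release onto NPR-11 of the AIA interneurons, was not called (log2 fold change -0.39, SE 0.30), nor was its receptor gene *npr-11* (log2 fold change -0.30).

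*nlp-37*, the precursor of the pigment-dispersing factor PDF-2, and *nlp-47*, a peptide related to gonadotropin-releasing hormone, also did not pass the test, at log2 fold changes of -0.37 and 0.09. Of their receptor genes, *pdfr-1* was not called (log2 fold change -0.35) and *gnrr-1* was called higher (log2 fold change 1.20, adjusted p = 0.0284). The other genes not called were *nlp-4*, *nlp-10*, *nlp-19*, *nlp-38*, *nlp-15*, *nlp-41* and *nlp-46*. Of these, *nlp-15*, *nlp-41* and *nlp-46* had groups that did not overlap. *nlp-15*, the second orcokinin-like gene, had 21.8, 27.2 and 19.6 CPM in *hpl-2*(*tm1489*), against 13.6 and 17.9 CPM in N2 (log2 fold change 0.54, adjusted p = 0.137). *nlp-41* had 8.05, 10.4 and 6.64 CPM in *hpl-2*(*tm1489*), against 5.72 and 5.16 CPM in N2 (log2 fold change 0.62, adjusted p = 0.104). *nlp-46* had 0.282, 0.185 and 0.175 CPM in *hpl-2*(*tm1489*), against 0.360 and 0.557 CPM in N2 (log2 fold change -1.08, SE 0.54, adjusted p = 0.119). Its standard error was the widest of the tested *nlp* genes.

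Some calls appeared when 1 library was left out. *nlp-1* (log2 fold change -0.66), *nlp-10* (-0.59), *nlp-25* (-1.03) and *nlp-37* (-0.71) were called lower without mutant replicate 2, *nlp-25* also without N2 replicate 2 (-1.06), and *nlp-46* without N2 replicate 1 (-1.36).

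The 3 genes that were not tested were at or near the floor of detection. *nlp-22*, which the RIA interneurons express in a cycle tied to larval sleep at the molts, had 0, 0 and 2 raw counts in *hpl-2*(*tm1489*) and 1 and 4 in N2. *nlp-32* had 7, 3 and 0 counts in *hpl-2*(*tm1489*) and 2 and 1 in N2, and *nlp-39* had 3, 4 and 5 counts in *hpl-2*(*tm1489*) and 0 and 0 in N2. No fold change is given for these genes, because at this depth a difference could not be detected.

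Summed over all 38 genes, the *nlp* level was 1430, 1930 and 1290 CPM in *hpl-2*(*tm1489*), against 1180 and 1330 CPM in N2, so the groups overlapped. *nlp-24*, *nlp-26* and *nlp-40* made up much of the mutant sum. Without these 3, which were set aside after their values were seen, the sum was 655, 777 and 532 CPM in *hpl-2*(*tm1489*), against 881 and 994 CPM in N2, with all mutant libraries below N2.

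**Figure D3:**
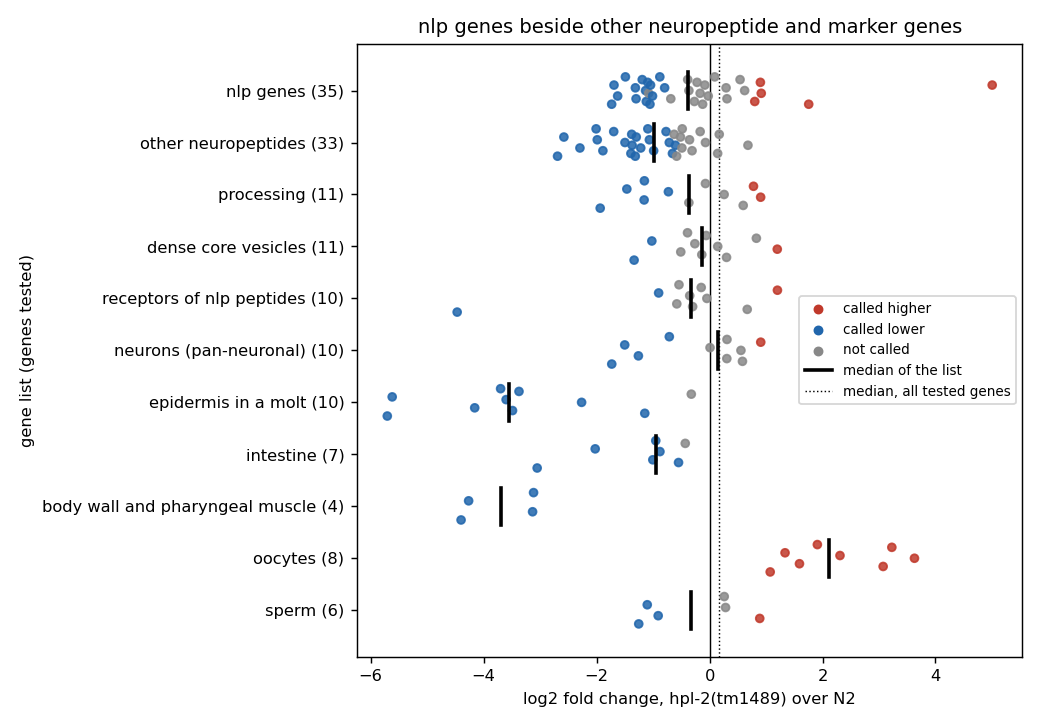
log2 fold change, *hpl-2*(*tm1489*) over N2, of each tested gene in the *nlp* class and in 10 other gene lists (horizontal axis), colored by call, with a thick bar at each list's median and a dotted line at the median of all tested genes. The medians were -0.39 for the *nlp* genes, -0.99 for the other neuropeptide genes and 0.16 for the pan-neuronal genes, and the muscle and molt lists lie far to the left.

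A list of other neuropeptide genes (*flp* genes, *pdf-1* and a few further precursors, with no insulin-like gene) was set beside the *nlp* genes. Of 33 tested, 21 were called lower, none higher and 12 were not called, with a median log2 fold change of -0.99, beside 27.6% lower and 33.9% higher of all tested genes. The greatest falls were in *flp-13*, a sleep peptide of the ALA neuron (log2 fold change -2.69, adjusted p = 0.00072), *flp-3* (-2.58) and *flp-11*, the sleep peptide of the RIS neuron (-2.30). *flp-24*, also a sleep peptide gene of ALA, was not called (log2 fold change -0.31). *pdf-1*, the second pigment-dispersing factor gene, was called lower at -1.50 (adjusted p = 0.00122). The count of falls in this list ran from 14 to 28 over the alternatives.

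The enzymes that make the peptides were divided. Of 11 processing genes, 5 fell, 2 rose and 4 were not called, beside the 27.6% and 33.9% of all tested genes given above. The 5 that fell were the proprotein convertase *egl-3* (log2 fold change -1.94, adjusted p = 0.000443), its chaperone *sbt-1* (-1.16), the carboxypeptidase *egl-21* (-1.47), and the amidation enzymes *pghm-1* (-1.15) and *pgal-1* (-0.73). The 2 that rose were the convertases *kpc-1*, which is furin-like (0.90, adjusted p = 0.0159), and *aex-5*, which acts in the defecation program (0.78, adjusted p = 0.0365). The furin-like convertase *bli-4*, which also serves the cuticle, was not called (-0.37), nor were the carboxypeptidases F59A3.1 (*cpd-1*, 0.60) and T27A8.1 (*cpd-2*, -0.07) and the amidation enzyme T19B4.1 (*pamn-1*, 0.26). The count of rises was 1 without mutant replicate 1 or N2 replicate 2, 3 without mutant replicate 2 or N2 replicate 1. Summed over the 11 genes, the level was 528, 472 and 494 CPM in *hpl-2*(*tm1489*), against 715 and 884 CPM in N2.

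Of 11 genes for dense core vesicles, *ida-1*, a membrane protein of these vesicles (log2 fold change -1.34, adjusted p = 0.00358), and *hid-1*, which acts in their formation (-1.02, adjusted p = 0.00989), were called lower. Y87G2A.11, also known as *eipr-1*, was called higher (1.20, adjusted p = 0.0096), and the other 8 were not called, beside 27.6% lower and 33.9% higher of all tested genes. The rises numbered 2 in the fit without N2 replicate 1 and 4 with span offsets, and the falls 5 after upper quartile scaling. The 8 genes not called included *unc-31*, the priming factor for vesicle release (-0.51, adjusted p = 0.13). The neprilysins *nep-1* and *nep-2*, proteases of a family that degrades neuropeptides outside the cell, were both called lower (-3.43 and -1.77).

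Among 10 receptor genes for *nlp* peptides, 1 was called higher (*gnrr-1*) and 2 lower (*aex-2* and *nmur-2*), with 7 not called, shares under the 33.9% and 27.6% of all tested genes. The falls numbered 1 without mutant replicate 1, mutant replicate 3 or N2 replicate 1, and there was no rise after upper quartile scaling. *nmur-2* had 6, 0 and 2 raw counts in *hpl-2*(*tm1489*) and 37 and 35 in N2. Every mutant library was below both N2 libraries, from very few reads (adjusted p = 0.00176). Of the 10 pan-neuronal genes, 4 were called lower and 1, *ric-4*, higher (adjusted p = 0.0616), beside 27.6% and 33.9% of all tested genes. The rises numbered 0 without mutant replicate 2 or N2 replicate 2 and 3 without N2 replicate 1, and the falls 3 or 4 with any library left out.

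The 6 epidermal *nlp* genes left out of the class were measured in the same libraries. *nlp-27*, *nlp-28*, *nlp-29* and *nlp-31* were called higher, with log2 fold changes of 4.00, 6.25, 4.26 and 1.43, *nlp-34* was called lower at -1.18, and *nlp-30* was not called (-0.43). Besides *nlp-26* at 5.00, no gene of the class rose by as much as *nlp-27*.

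Neighboring genes were compared for the 19 called *nlp* genes in the WBcel235 table. Both neighbors were called in the direction of the *nlp* gene in 4 (*nlp-3*, *nlp-17*, *nlp-18* and *nlp-24*), both in the opposite direction in 2 (*nlp-26* and *nlp-35*), and 1 in each direction in 2 (*nlp-8* and *nlp-20*). In 8 genes only 1 neighbor was called, in the same direction, in *nlp-16* only 1, in the opposite direction, and in *nlp-2* and *nlp-12* neither was called. The 8 include *nlp-9* and *nlp-13*, which are each other's called neighbor. Of all tested genes, 33.9% were called higher and 27.6% lower, and whether neighbors shared direction beyond this was not tested. *nlp-18* lies between F33A8.7 and F33A8.10, which were called lower at -3.28 and -1.29 on the log2 scale, and *nlp-3* lies between F09A5.4 and *cwp-5*, called lower at -0.88 and -2.58. *nlp-17* lies between Y45F10A.7 and *seld-1*, called higher at 1.02 and 1.22. The *nlp* genes were shorter than most, with a median span of 1298 bases, against 2216 bases for all tested genes. When each library's trend with span was removed, the median log2 fold change of the *nlp* genes was -1.10, beside -0.02 for all genes, and 17 of the 20 called genes were among the 25 then called.

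**Figure D4:**
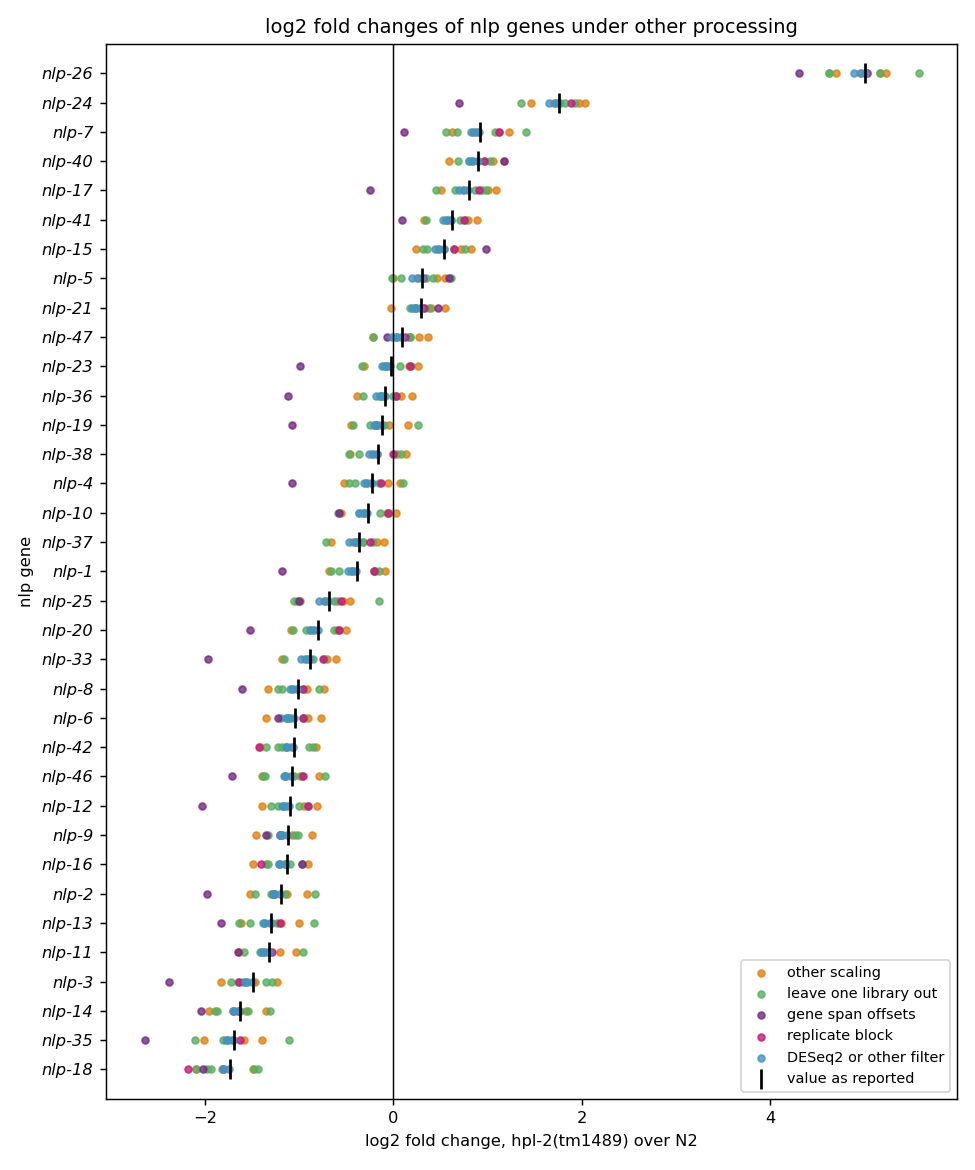
log2 fold change of each tested *nlp* gene, *hpl-2*(*tm1489*) over N2 (horizontal axis), as reported (black bar) and under 14 other ways of processing the same counts, colored by kind (another scaling, 1 library left out, gene span offsets, replicate block, and DESeq2 or another filter). *nlp-26* stays between 4.30 and 5.57, whereas *nlp-23* and *nlp-36* cross 0.

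In 10 genes the call did not depend on the processing. *nlp-24* and *nlp-26* among the rises, and *nlp-3*, *nlp-9*, *nlp-11*, *nlp-13*, *nlp-14*, *nlp-16*, *nlp-18* and *nlp-35* among the falls, kept their direction and their call under all 14 alternatives. DESeq2 called all 20 of the called genes and 1 more, *nlp-25*.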

How the data were processed

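The poly(A) RNA-seq libraries of the study, 3 from *hpl-2*(*tm1489*) and 2 from N2 animals, were analyzed. After trimming, the authors used TopHat2 for alignment to WS220 and Rsubread to assign unique alignments to genes, and they deposited raw counts in 1 table, whose columns were matched to samples by name. The other assays of the study were not used here.

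Of 45461 rows, 23103 had at least 1 count, and edgeR's filterByExpr (minimum count 10) kept 17498 genes. edgeR 4.0.16 in R 4.3.3 was used for TMM normalization and for a robust quasi-likelihood fit with genotype as the group, over these 5 libraries and all genes, with Benjamini-Hochberg adjustment and a threshold of 0.1. Each standard error is the log2 fold change divided by the square root of F. CPM were computed from TMM-adjusted library sizes. A group whose libraries all had 3 counts or fewer was treated as at the floor, which covers counting error only. No pair of libraries agreed within sampling noise (chi-square over degrees of freedom of 97.15 or more). On counts simulated for 17498 genes, with 200 changed by 2 on the log2 scale, 194 were recovered and 8.06% of 211 calls were false. Recovery and false calls were not tested with smaller changes, or with as many genes changed as the 61.5% called in these libraries.

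Full values are given for the 10 called genes with the greatest change in each direction and a mean of at least 100 counts, the 5 genes with the highest CPM, the gene nearest to no change, and genes at the floor. *nlp-6*, *nlp-8*, *nlp-15*, *nlp-21*, *nlp-25*, *nlp-41* and *nlp-46* were added by role or after their values were seen. The genes, lists and tests were chosen with earlier results of these data known. Neighbors and alternative names were read from the WBcel235 RefSeq gene table, which held 35 of the 38 *nlp* genes. Alternatives were DESeq2 1.42.0, other scalings, other filters and thresholds, a block for the replicate number, omission of each library and, added after the data were seen, offsets for gene span.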

Additional observations from a re-analysis of the deposited data

How the results depend on the processing

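The count of *nlp* genes called higher, 5, was 3 after upper quartile scaling, 3 when scaled to *pmp-3*, 3 with a replicate block, 2 with an absolute log2 fold change above 1, and 2 to 5 when each library was left out. The count called lower, 15, was 10 when scaled to *pmp-3*, 10 with a replicate block and 21 with span offsets. It lay between these values in every other alternative. The median log2 fold change of -0.39 was -1.10 with span offsets, which were chosen after the data were seen, and -0.71 to -0.22 when each library was left out. Over the scalings and other fits, the median of all tested genes lay between -0.16 (upper quartile) and 0.41 (library size alone), and log2 fold changes near 0 move with it. Signs turned, without a call on either side, in these genes. By library size alone, *nlp-4* was at 0.0703, *nlp-10* at 0.0251, *nlp-19* at 0.15, *nlp-23* at 0.26, *nlp-36* at 0.19 and *nlp-38* at 0.13. Scaled to *pmp-3*, *nlp-23* was at 0.17, *nlp-36* at 0.0826 and *nlp-38* at 0.0340. After upper quartile scaling, *nlp-5* was at -0.0014, *nlp-21* at -0.0257 and *nlp-47* at -0.21, and *nlp-47* was at -0.0125 without a filter and -0.0713 with span offsets. *nlp-17*, which was called higher, was at -0.24 with span offsets. With a library left out, ranges crossed 0 in *nlp-4* (-0.47 to 0.10), *nlp-5* (-0.0176 to 0.62), *nlp-19* (-0.43 to 0.26), *nlp-23* (-0.33 to 0.19), *nlp-36* (-0.32 to 0.0330), *nlp-38* (-0.47 to 0.0790) and *nlp-47* (-0.22 to 0.18). The causes were not tested. With the replicate block, *nlp-23* was at 0.18 and *nlp-36* at 0.0239, and 13 of the 20 called genes were still called (not *nlp-6*, *nlp-8*, *nlp-12*, *nlp-17*, *nlp-20*, *nlp-33* and *nlp-40*). In that fit 2 of the intestinal markers were called lower and 0 of the processing genes higher. Same-numbered libraries correlated at -0.168 and -0.257 in their deviations from the group means. With 2 N2 libraries the N2 deviations mirror each other, so these correlations cannot show whether the numbers pair the samples. Leaving out an N2 library leaves 1, assumed to vary like the mutant libraries. *nlp-37*, *nlp-38* and *nlp-42* had no span and were left out of that fit. A planned description of the precursor proteins was not run. With 2 N2 libraries, differences near the standard errors of 0.25 to 0.54 on the log2 scale were not detectable.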
